A study of Arabidopsis thaliana with 4 samples.

Results

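Transcript levels in leaves of wounded opr3 plants were compared with those in leaves of wounded wt plants, array against array. The comparison is the log2 value of the wounded opr3 array minus that of the wounded wt array, for each probe set whose highest value over the 4 arrays of the study was about 4.7 or more, on the authors' log2 scale. A probe set is a group of short oligonucleotides on the Affymetrix ATH1 array that together measure a transcript near its 3′ end. This filter kept 14599 of the 22810 probe sets in the table, after 64 array controls had been left out. Of those kept, 69 measure plastid-encoded genes and are described apart, and 14530 measure all other genes. A single named gene was given for 7903 of the 14530. The annotation listed several genes for 291 and did not list 6336, which are counted here but not named.

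The study was made in Arabidopsis thaliana and has 4 groups with 1 array each: wt control, wt systemic wounding, opr3 control and opr3 systemic wounding. All plants were 6 weeks old and had grown at 21 °C in short days of 10 h of light and 14 h of darkness. In the wounded groups, some leaves of the rosette had been crushed with tweezers, and RNA was taken 2 h later from leaves that had not been, which the labels call control leaves. Controls were not wounded. The opr3 line carries a lesion in the gene for 12-oxophytodienoate reductase, and the sources used here do not give its allele, its background or the number of plants behind an array. The treatment text of the wounded opr3 sample speaks of WT plants, so its group was taken from its title.

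In a wounded plant, fatty acids released in the plastid are turned into the cyclopentenone OPDA, which the peroxisomal enzyme OPR3 reduces on the main route to jasmonic acid. Conjugated to isoleucine, jasmonic acid binds the receptor COI1 and sets off the destruction of JAZ repressors, which frees MYC transcription factors. Genes switched on in this way include those for defence proteins and for the enzymes that modify and inactivate jasmonate itself. Loss of OPR3 is best known for male sterility and for weak jasmonate responses, while OPDA, made before the block, has signalling effects of its own. The comparison shows which transcripts of unharmed leaves differed between the lines once the plant had been wounded elsewhere.

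With 1 array a side there is no measure of the spread between plants, so no test was made and no difference below has a replicate check. A probe set is called higher or lower where the arrays differ by at least 2-fold, a log2 difference of 1. The deposited values are log2 values made comparable between arrays by the authors, with medians between 5.36 and 5.42. Values under that filter level lie near background, and a fold that rests on one is approximate. In whole leaves, fewer cells of a type and less RNA per cell cannot be told apart. OPR3 itself is not named in the annotation used, and its transcript was not analysed by name here. An unnamed probe set may measure it. Of the cell type markers written to check the tissue, 3 of 13 for mesophyll, 1 of 4 for trichomes and 1 of 5 for phloem companion cells were measured, and the other types were not analysed here. The mesophyll genes LHCB4.1, RCA and PRK lay between 12.21 and 13.57 in all arrays, and their differences between wounded lines lay between -0.11 and -0.03. TRY, a trichome regulator, was between 5.21 and 6.24, with a line difference of -0.57 in wounded and -0.15 in control plants. SWEET11, a phloem sugar exporter, was between 9.37 and 10.45, with -0.29 in wounded and -1.08 in control plants.

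Of the 14530 probe sets outside the plastid genome, 169 (1.16%) were higher and 242 (1.67%) were lower in wounded opr3 than in wounded wt. In controls the lines differed at 58 higher (0.399%) and 84 lower (0.578%). Among probe sets with a single named gene, 75 of 7903 (0.949%) were higher and 94 (1.19%) lower after wounding. The larger a difference, the more one-sided it was. At least 3-fold, 26 were higher and 122 lower, and at least 4-fold, 8 were higher and 68 lower. At least 8-fold, none was higher and 21 were lower. At the milder limit of 1.5-fold the balance turned, with 681 higher and 549 lower. The central 95% of differences ran from -0.76 to 0.76, against -0.56 to 0.45 between the control arrays.

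The directions differed in which array stood out. Each call used the gap between the wounded arrays, which favours an extreme place for them. Counts of extreme arrays are thus descriptions. Of the 242 lower probe sets, wounded wt was the highest array for 228. For 27 of the 242 this was fixed by the filter, which they passed through wounded wt alone. Of the 169 higher ones, wounded opr3 was the highest array for 139 and wounded wt the lowest for 93. In 73 of the lower probe sets (30.2%) wounded wt stood apart by a rule on 3 gaps. Wounded wt was at least 1 above wounded opr3, and opr3 control lay within 0.5 of both wt control and wounded opr3. The gap between wounded wt and wt control was not part of the rule and can be under 1. By the matching rule, with wt control within 0.5 of both opr3 control and wounded wt, wounded opr3 stood apart for 8 of the lower and 34 of the higher probe sets. By the first rule, wounded wt stood apart on the low side for 33 of the higher ones. Because wounded wt is on the other side of each difference, its own measurement error enters every value given here.

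The 3 named genes lowest in wounded opr3, BSMT1, JRG21 and AT2G38240, encode enzymes that modify jasmonate or salicylate. All 5 measured members of the jasmonate turnover list, out of 13 written, were lower (1.19% of all named probe sets were). Their median log2 difference was -4.53, where the median of all probe sets outside the plastid genome was 0.00. The list is not of jasmonate enzymes alone, since BSMT1, its lowest member, makes methyl salicylate and methyl benzoate. Of these 5, BSMT1, JRG21 and JMT reached the filter level through wounded wt alone, so their difference was bound to be one-sided, and the count supports nothing by itself. With low values raised to the filter level the median was -4.18, and without the filter, which adds 1 member, it was -3.52.

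BSMT1, a methyltransferase that makes methyl salicylate and methyl benzoate, stood at 3.97 in wt control, 8.91 in wounded wt, 3.86 in opr3 control and 3.61 in wounded opr3. Wounded wt was the high array, and the other 3 lay near background. The difference of -5.30 corresponds to 39.4-fold, or to 18.2-fold when values under the filter level are raised to it. JRG21, a jasmonate oxidase, which hydroxylates jasmonic acid and thereby inactivates it, had the same shape at 4.44, 9.13, 4.03 and 4.1, in the same order of arrays. Its difference was -5.03.

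AT2G38240 and AT5G05600 belong to the same family of jasmonate oxidases and were well above background in wounded plants of both lines. AT2G38240 stood at 5.28 in wt control, 10.75 in wounded wt, 5.20 in opr3 control and 6.22 in wounded opr3. The lines were alike before wounding and 23.0-fold apart after it. AT5G05600 stood at 7.04, 11.08, 4.95 and 9.08 in the same order. Here the wounded arrays were both above their controls by about the same amount, and the lines were as far apart before wounding (-2.09) as after it (-2.0). The line difference thus lay after wounding for AT2G38240 and in both conditions for AT5G05600.

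JMT, which methylates jasmonic acid, stood at 4.33, 7.13, 3.56 and 4.63, a difference of -2.51 between the wounded arrays (5.68-fold, or 5.29-fold with low values raised to the filter level). Of the 22 genes written for jasmonate synthesis, OPCL1 and AIM1 were measured. OPCL1, a CoA ligase that prepares the precursor for shortening, was at 7.57, 8.86, 7.30 and 7.97, so that wounded wt was highest but the difference of -0.89 stayed short of 2-fold. AIM1, a multifunctional protein of peroxisomal beta-oxidation, differed by 0.09. None of the 12 JAZ repressors written was named on the array.

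**Figure D1:**
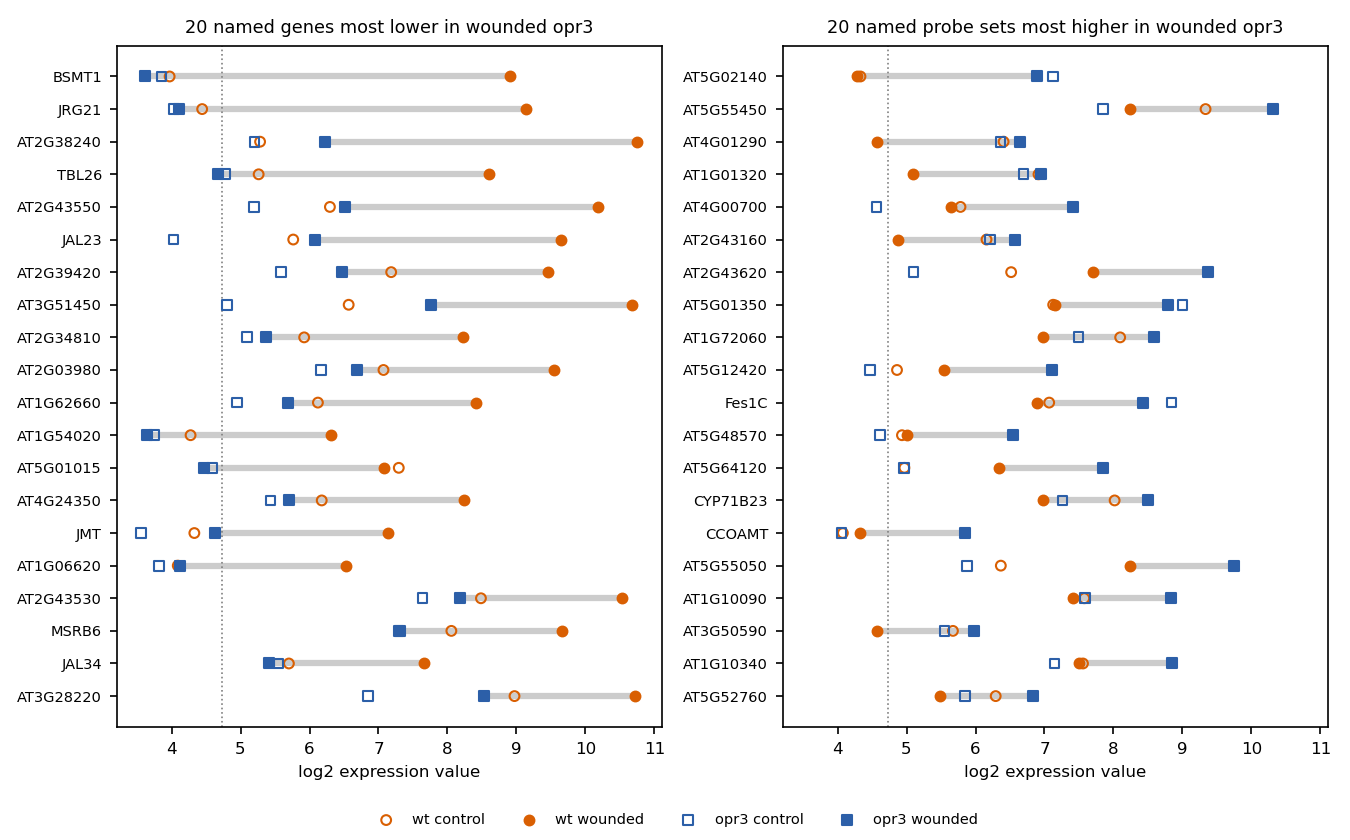
Log2 expression values (x axis) of the 20 named genes most lower (left) and the 20 named probe sets most higher (right) in wounded opr3, with 1 point per array and a grey bar between the wounded arrays. The dotted line is the filter level. Wounded wt is the highest array for 19 of the 20 on the left (5 of them passed the filter through that array alone). Wounded opr3 is the highest for 17 of the 20 on the right. Choosing genes by the gap between these arrays favours both counts.

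In the list of the MYC branch and its outputs, 4 of 12 genes were measured, 2 were lower (against 1.19% of all named probe sets) and the median was -0.59. With low values raised to the filter level 1 was lower and the median was -0.30. A stricter filter, at the 60th percentile, also left 1 lower, with a median of -0.13. JAL23, a jacalin-related lectin, stood at 5.76 in wt control, 9.65 in wounded wt, 4.03 in opr3 control and 6.07 in wounded opr3. In both lines the wounded array was the higher one, and opr3 lay below wt in both conditions, by 1.74 before and 3.58 after wounding on the log2 scale. THI2.1, a thionin, was at 4.42, 5.19, 4.48 and 4.15, and passed the filter through wounded wt alone, with a difference of -1.04. The transcription factor genes MYC3 and MYC4 themselves differed by -0.13 each.

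Both measured jacalin-related lectins with a JAL symbol were lower, where 1.19% of all named probe sets were, and 2 genes say little of the family. JAL34 was at 5.70, 7.67, 5.55 and 5.41 over wt control, wounded wt, opr3 control and wounded opr3. Unlike JAL23, it was high in wounded wt alone, and its difference was -2.26. The plant defensins PDF1.2 and PDF1.2b, outputs of the joint action of ethylene and jasmonate, were both just past the limit at -1.05 and -1.07. For these defensins wounding made little difference within a line. PDF1.2b stood at 6.87 and 6.95 in the wt arrays and at 6.08 and 5.88 in the opr3 arrays, so opr3 lay below wt in both conditions.

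A cluster of small cysteine-rich peptides of the trypsin inhibitor type lies on chromosome 2. Of its members, AT2G43530, AT2G43535 and AT2G43550 were lower, where 1.19% of all named probe sets were. Neighbours were sought among genes past the limit alone, so nothing is said of other members of the cluster. AT2G43550 stood at 6.30 in wt control, 10.18 in wounded wt, 5.19 in opr3 control and 6.52 in wounded opr3, which makes it 12.7-fold lower between the wounded arrays. AT2G43530 was at 8.49, 10.53, 7.64 and 8.18, with a difference of -2.36. AT2G43535 was low throughout, at 5.15, 5.81, 5.25 and 4.53, with a difference of -1.28. In all 3 genes wounded wt was the highest array, but wounded opr3 was above opr3 control for AT2G43530 and AT2G43550 and below it for AT2G43535. This neighbour, AT2G43535, was picked for its place in the gene order after its value had been seen.

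Other genes among the 20 lowest act on lipids, sugars and small molecules. AT2G39420, of the alpha/beta hydrolase family, stood at 7.18, 9.45, 5.58 and 6.47, a difference of -2.98. AT2G03980 and AT1G54020, of the GDSL lipase family, differed by -2.86 and -2.68, but AT1G54020 passed the filter through wounded wt alone and was 3.01-fold lower with low values raised to the filter level. AT1G62660, a vacuolar invertase that splits sucrose, was at 6.12, 8.42, 4.95 and 5.69. Wounded opr3 thus lay below wt control, as it did for each other gene given here except AT3G51450. AT2G34810, of the berberine bridge enzyme family, differed by -2.86 and AT3G51450, of the strictosidine synthase-like family, by -2.91. AT3G51450 was also the member of this group with the largest wounded-over-control gap in opr3, at 6.57, 10.68, 4.80 and 7.76. AT4G24350, of the phosphorylase family that includes vegetative storage proteins, was at 6.18, 8.24, 5.43 and 5.70, with a difference of -2.54.

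AT1G06620, of the 2-oxoglutarate-dependent oxygenases, passed the filter through wounded wt alone, at 6.53, and differed by -2.42, or by 3.49-fold with low values raised to the filter level. Its near neighbour on chromosome 1, AT1G06640, differed by -2.11 at a higher level, with 7.36 in wt control, 9.25 in wounded wt, 6.79 in opr3 control and 7.15 in wounded opr3. MSRB6, a methionine sulfoxide reductase that repairs oxidised protein, stood at 8.06, 9.65, 7.29 and 7.31. The opr3 arrays were almost level, and the difference between wounded lines was -2.35. MSRB5, beside it on chromosome 4, had another shape at 7.96, 7.42, 7.14 and 6.05, lower in the wounded array of each line, with a difference of -1.37. AT1G06640 and MSRB5 were named for their place beside a listed gene, after their values had been seen.

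TBL26, of a family whose members acetylate wall polysaccharides, was at 5.26 in wt control, 8.61 in wounded wt, 4.78 in opr3 control and 4.67 in wounded opr3. It was at background in wounded opr3 and 15.3-fold higher in wounded wt, or 14.7-fold with low values raised to the filter level. TBL37 was at 7.84, 9.58, 7.14 and 7.66, with a difference of -1.92. These were the 2 lower genes of 15 TBL genes measured (1.19% of all named probe sets were lower), whose median was -0.17 and none of which was higher.

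Sulfur assimilation and the glucosinolates, sulfur-rich defence compounds of the cabbage family, were covered by few named genes. Both measured sulfur assimilation genes of 14 written were lower, where 1.19% of all named probe sets were, and with 2 genes the count says little of the pathway. APS3, an ATP sulfurylase, was at 6.96 in wt control, 8.38 in wounded wt, 6.23 in opr3 control and 6.63 in wounded opr3, a difference of -1.76. SIR, the sulfite reductase, was at 9.55, 10.28, 9.19 and 9.21, a difference of -1.07. In both genes wounded wt was the highest array and the opr3 arrays lay within 0.50 of each other.

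For the glucosinolates, UGT74B1, the glucosyltransferase of the core pathway, was at 7.96, 9.31, 7.40 and 7.88 and differed by -1.43. It was the single measured gene of 15 in the indole glucosinolate list. AT2G31790, a glucosyltransferase of the aliphatic branch, differed by -1.15, and BCAT4, which starts the elongation of methionine side chains, by -0.92. BCAT4 stood at 9.90, 11.17, 8.93 and 10.25, so the lines were as far apart in controls (-0.97) as after wounding. AT2G04400, the tryptophan synthesis gene for indole-3-glycerol phosphate synthase, differed by -1.29. GTR1, a glucosinolate transporter named after its value had been seen, was at 7.81, 9.19, 7.42 and 7.81, a difference of -1.38.

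**Figure D2:**
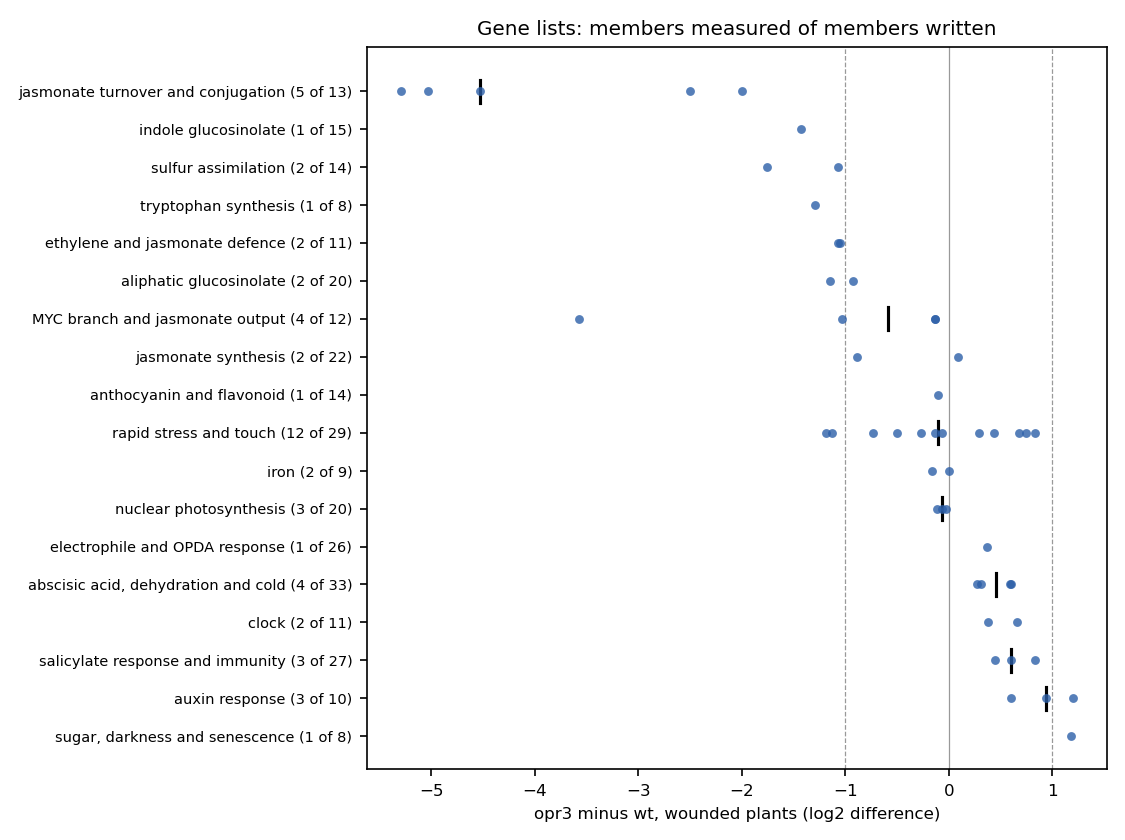
Opr3 minus wt log2 differences in wounded plants (x axis) for every measured member of each gene list, with the number measured and written beside the name. Dashed lines mark 2-fold and black bars the median of lists with at least 3 measured members, which ran from -4.53 for jasmonate turnover to 0.94 for auxin response; photosynthesis genes sat near 0.

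Families named by symbol showed where lower genes were few among many. Of 23 UGT glycosyltransferases, 3 were lower (against 1.19% of all named probe sets) and none higher, at a median of -0.28. They were UGT76E12 (-2.14), the flavonol rhamnosyltransferase UGT78D1 (-1.59) and UGT74B1. UGT76E12 passed the filter through wounded wt alone, at 3.63, 5.54, 3.33 and 3.40, and with low values raised to the filter level it was 1.75-fold lower, short of the limit. Its close relative UGT76E11 was at 5.64, 6.88, 5.21 and 6.30 and differed by -0.58. Of 9 SWEET sugar transporters, SWEET17 (-1.26) and SWEET16 (-1.01), which move sugars across the vacuole membrane, were lower. SWEET17 stood at 6.57 in wt control, 7.69 in wounded wt, 5.81 in opr3 control and 6.44 in wounded opr3, so that it was higher after wounding in each line. SWEET16 was at 5.50, 5.82, 5.53 and 4.81, where wounded opr3 was the low array.

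In other families few genes or none passed the limit, where the background was 1.19% lower and 0.949% higher. None of 9 bZIP transcription factors, 8 PUB ubiquitin ligases or 7 beta-glucosidases was past the limit, with medians of 0.07, -0.27 and -0.23. Of 6 glutathione transferases, GSTU20 was lower (-1.03) and GSTL3 higher (1.0). Of 13 cytochrome P450 genes, CYP71B23 was higher (1.52), and of 9 expansins, EXLA1 was higher (1.26). With so few members per family these counts describe the array and are no statement on the families.

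Differences on the higher side were smaller than those on the lower side. At the top, AT5G02140, of the thaumatin family, was already higher before wounding and lies near other such genes on chromosome 5. AT5G55450, a lipid-transfer family gene, stood at 9.34 in wt control, 8.24 in wounded wt, 7.85 in opr3 control and 10.32 in wounded opr3. Wounded opr3 was the highest array and opr3 control the lowest, and in wt the order of control and wounded was the other way round. The difference between the wounded lines was 2.07, or 4.21-fold.

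AT2G43620, of the chitinase family, had a related shape at 6.52, 7.71, 5.10 and 9.37, with the wounded array higher in both lines and a difference of 1.66. AT4G00700, of a C2-domain family, was at 5.78, 5.64, 4.56 and 7.42, so that the wt arrays were level and the opr3 arrays lay on either side of them. Its difference was 1.78. CYP71B23, a cytochrome P450, was at 8.02, 6.98, 7.26 and 8.5, and AT1G72060, annotated as a peptidase inhibitor, at 8.10, 6.98, 7.49 and 8.59. In both genes wt was lower after wounding and opr3 was higher.

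Fes1A, a nucleotide exchange factor of the Hsp70 chaperones, was at 5.81 in wt control, 6.52 in wounded wt, 5.46 in opr3 control and 7.72 in wounded opr3, a difference of 1.2. Hsp70-2 was at 7.03, 7.92, 6.47 and 9.0, a difference of 1.08. AT5G48570, a peptidyl-prolyl isomerase of the heat stress response, was at 4.93, 5.01, 4.62 and 6.54, a difference of 1.52. In all 3 genes wounded opr3 was the highest array and opr3 control the lowest. Fes1A and Hsp70-2 were picked after their values had been seen, and the family of heat shock symbols, matched in capitals, took in no measured gene, so nothing is said of that group.

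AT5G64120, a class III peroxidase, was at 4.97, 6.34, 4.97 and 7.85, a difference of 1.52 that arose after wounding from equal controls. AT5G12420, of the wax ester synthase family, was at 4.86, 5.55, 4.47 and 7.11, a difference of 1.56. CCOAMT, annotated as a caffeoyl-CoA methyltransferase, was at background except in wounded opr3 at 5.85. AT5G55050, of the GDSL lipase family, was higher in wounded plants of both lines, at 6.37, 8.24, 5.88 and 9.74, and differed by 1.5 between them.

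The measured genes of the auxin, abscisic acid and salicylate lists lay above 0 in wounded opr3, with 1 past the limit. Of the 14530 probe sets outside the plastid genome, 7314 lay above 0, and 0.949% of all named probe sets were higher. With so few genes measured per list, these counts are no statement on the lists. All 3 measured auxin response genes of 10 written were above 0, with a median of 0.94 after wounding and 0.64 in controls. GH3.3, which conjugates auxin to amino acids, was at 4.22 in wt control, 6.25 in wounded wt, 4.87 in opr3 control and 7.45 in wounded opr3. It was higher after wounding in both lines and 2.30-fold higher in wounded opr3 than in wounded wt. WES1, of the same enzyme family, differed by 0.94, against -0.27 in controls. IAA29 differed by 0.60, less than in controls (0.82). The 3 measured genes with SAUR or IAA symbols, IAA29 among them, had a median of 0.19, from -0.26 to 0.60.

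The 4 measured abscisic acid, dehydration and cold genes of 33 written had a median of 0.45 after wounding, with none past the limit. Their median in controls was -0.41. LTI30, a dehydrin, was at 5.27, 8.80, 4.70 and 9.40, so its wounded arrays were close to each other (0.60) and far above the controls. Salicylate and immunity genes, 3 of 27 measured, had a median of 0.60 after wounding, with none past the limit, and of -0.002 in controls. Their members WRKY53, SAG101 and GRX480 differed by 0.83, 0.60 and 0.45 after wounding. In controls WRKY53 was already higher in opr3, at 1.11, and GRX480 was lower, at -1.39. AER, an alkenal reductase from the list of genes that respond to electrophiles such as OPDA, differed by 0.37 and was the single measured gene of 26. In the remaining lists with a measured gene, the clock genes CCL and GI differed by 0.65 and 0.38, DFR of the flavonoid pathway by -0.10, and the iron regulators BHLH101 and PYE by -0.16 and 0.01. AT2G39210, from the list for sugar, darkness and senescence, was past the limit at 1.18.

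Rapid stress and touch genes were a list in which the lines differed mainly before wounding. Of 12 measured of 29 written, 6 were higher (0.367% of all named probe sets) and 1 lower (0.278%) in opr3 controls. Their median there was 0.93. Between the wounded lines none was higher (0.949% of all named probe sets), 2 were lower (1.19%) and the median was -0.10. This list, like the others, was chosen with earlier results of these data known. PUB23, a ubiquitin ligase induced by stress, stood at 4.66 in wt control, 5.77 in wounded wt, 6.02 in opr3 control and 5.04 in wounded opr3. Wounded wt was above its control and wounded opr3 below its own, so the difference between lines was 1.35 in controls and -0.73 after wounding. STZ, a zinc finger repressor, was at 7.79, 8.28, 8.84 and 8.15, and its difference went from 1.05 to -0.14.

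EXO, known as a gene of brassinosteroid-promoted growth, was at 6.33, 6.39, 8.47 and 7.14, so opr3 control was the high array and the lines came closer after wounding, at 0.75. The 2 genes that were lower after wounding were WRKY22, a transcription factor of the immune response, and CML41, a calmodulin-like protein. WRKY22 stood at 5.88, 6.71, 6.92 and 5.52 and CML41 at 5.47, 6.66, 4.32 and 5.53. CML41 was lower in opr3 to the same extent in controls (-1.15) and in wounded plants (-1.13). The touch gene CML38 differed by -0.50 and CML42 by 0.68, while in controls both were above 0, at 0.82 and 1.08.

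The same subtraction in controls uses no array of the wounded comparison, so both can be set against each other. Of the 242 probe sets lower in wounded opr3, 41 were also lower in opr3 controls, which is 16.9% of the first list and 48.8% of the 84 lower in controls. Over all 242 the median control difference was -0.50, and 217 of 242 (89.7%) lay below 0 in controls, as did 59.0% of all probe sets. For the 169 higher ones, 8 were also higher in controls (4.7% of the first list and 13.8% of the 58), and 19 were lower there. Over all 14530 probe sets Pearson's r between both differences was 0.22 and Spearman's rho 0.11, across probe sets that share the arrays and are not independent. On either list, most probe sets were within 2-fold in controls.

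Among named genes, 16 differed the same way in both conditions, counting 1 probe set per gene. AT3G28220, of the TRAF-like family, was at 8.97 in wt control, 10.73 in wounded wt, 6.84 in opr3 control and 8.53 in wounded opr3. The lines stayed 2.13 apart before wounding and 2.2 after it, opr3 being the lower, while both were higher once wounded. AT2G39420, AT3G51450 and JAL23, described above, also belong to this set, at -1.60, -1.77 and -1.74 in controls. JAL23 and AT2G39420 lie 14 genes apart on chromosome 2.

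Genes near the start of chromosome 5 made up 6 of these 16. AT5G02140 stood at 4.33 and 4.28 in the wt arrays and at 7.13 and 6.89 in the opr3 arrays, control first. AT5G01350 was at 7.13 and 7.15 in wt and 9.0 and 8.79 in opr3. Fes1C, another exchange factor of Hsp70 chaperones, was at 7.07 and 6.89 in wt and 8.84 and 8.43 in opr3. In these genes the lines did not overlap and wounding moved neither line by as much as 0.50.

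AT5G02170 and AT5G02480 were higher in opr3 too, by 1.02 and 1.13 in wounded and by 1.56 and 1.08 in control plants. AT5G01015 was the lower one, at 7.29 and 7.08 in wt and 4.58 and 4.47 in opr3. These 6 genes lie between the third and the 198th gene of the chromosome in the gene table. Of 54 measured genes in that stretch of 196 genes, 6 (11.1%) differed the same way in both conditions, against 10 of 7726 (0.129%) elsewhere. The stretch was bounded by these genes after their values had been seen, so the share is a description. In windows of 100 measured genes along the genome, the most found on any other chromosome was 2.

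**Figure D3:**
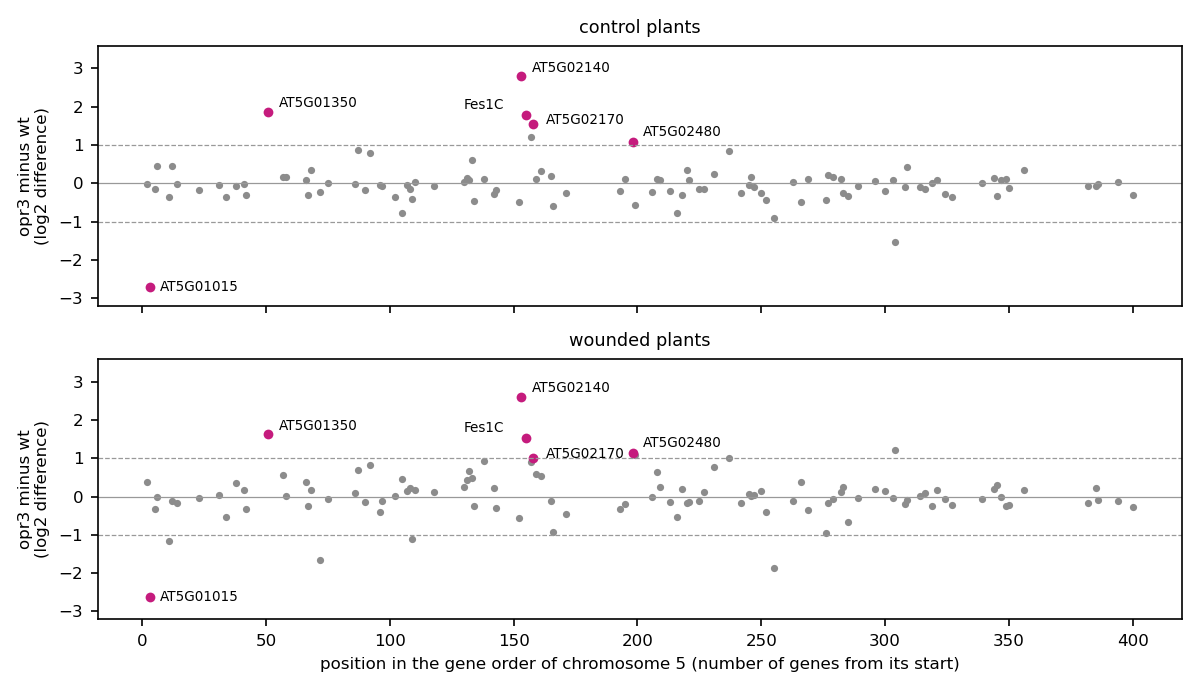
Opr3 minus wt log2 difference (y axis) of measured named genes along the start of chromosome 5 in the order of the gene table (x axis, number of genes), in control plants above and wounded plants below. Pink points are the 6 genes at least 2-fold apart in the same direction in both conditions; AT5G02140 was at 2.79 in control and 2.61 in wounded plants.

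The OPR3 gene itself lies elsewhere in the gene order, and of the 9 measured genes within 50 genes of it none was past the limit in either condition. Single genes next to each other were found in both directions. Besides the clusters named above, the aspartyl protease family genes AT5G19100 and AT5G19110 were lower together, by 1.04 and 1.86 on the log2 scale, and AT5G52750 and AT5G52760 were higher together, at 1.23 and 1.34. Hsp70-2 stands next to AT5G02480, but in controls it differed by -0.55 while AT5G02480 differed by 1.08. Neighbours of these kinds were named after their values had been seen, AT5G52760 excepted.

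Plastid-encoded transcripts code for core subunits of the photosynthetic complexes and of the plastid's own ribosomes and polymerase. They lay mostly above 0 in opr3, in wounded plants (64 of 69) and already in controls (58 of 69). Of the 14530 other probe sets, 7314 lay above 0 in wounded plants and 5955 in controls. Of the 69 plastid-encoded probe sets, 26 (37.7%) were higher after wounding, against 1.16% of the others. None was lower, and the median was 0.66. Between the control arrays 3 (4.35%) were higher, against 0.399% of the others. There too none was lower, and the median was 0.28. The first gene of this set, psaA of the photosystem I core, stood at 11.87 in wt control, 7.27 in wounded wt, 12.31 in opr3 control and 12.15 in wounded opr3. Wounded wt was the low array and the other 3 lay within 0.50. In all 26, wounded wt was the lowest of the 4 arrays, and in 23 it lay at least 1 below each of the others. Being called higher already puts wounded wt below wounded opr3, which favours that order.

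The size differed between complexes and between genes of a complex. Median differences were 1.5 for 6 genes of the ATP synthase, 1.16 for 10 of the NDH complex, 0.90 for 5 of photosystem I and 0.45 for 15 of photosystem II. Ribosomal protein genes, 15 in number, had a median of 0.21. After psaA (4.88), atpH of the ATP synthase ring (3.48) and psaC of photosystem I (3.21) differed most. At the other end lay rps14 (-0.76), rps15 (-0.44) and rpoA (-0.15).

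**Figure D4:**
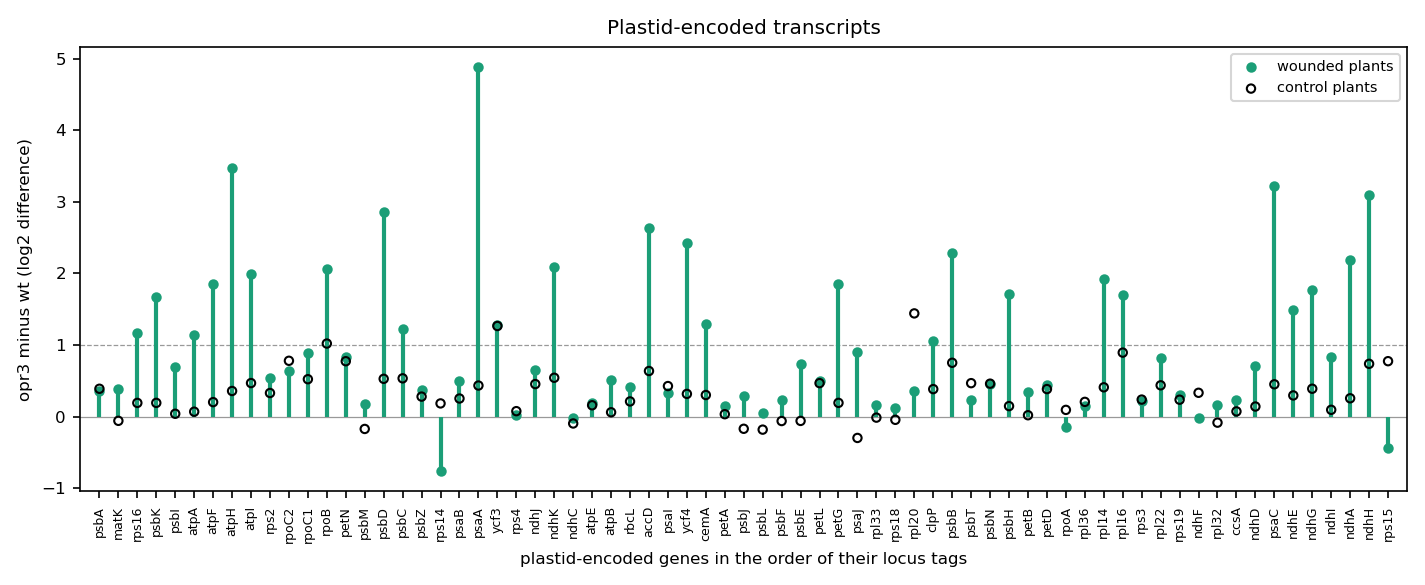
Opr3 minus wt log2 difference (y axis) of each plastid-encoded probe set in wounded plants (green) and control plants (open circles), in the order of the locus tags (x axis). The dashed line marks 2-fold; 26 of 69 probe sets pass it in wounded plants and 3 in control plants, with neighbouring genes at very different values.

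The 5′ and 3′ array controls were read on each array as well. For 8 pairs of spiked-in Bacillus probe sets, the mean 5′ minus 3′ log2 difference was -1.16 in wt control, -2.0 in wounded wt, -1.27 in opr3 control and -1.29 in wounded opr3. A lower value means that less of the 5′ part of a transcript was labelled relative to its 3′ part. For 6 pairs of Arabidopsis controls the values were -0.86, -1.18, -0.92 and -0.88. Wounded wt was thus the lowest array in the mean of both kinds of control. Both kinds measure some transcripts by more than 1 pair, so their pairs are not independent. A ubiquitin pair was at -0.44 in wounded wt and -0.45 in wt control, and a GAPDH pair at 0.075 in wounded wt and 0.052 in opr3 control. In the remaining Arabidopsis pairs wounded wt was the lowest array. Over 9 pairs of other spike-ins it lay at -0.35, with the other arrays between -0.33 and -0.23. The part of this array's labelling in the differences was not tested.

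Genes measured by more than 1 probe set give a further look at the higher list. There were 85 such genes with 174 probe sets, and 13 of those probe sets were higher and none lower. For each of the 13 genes, the gene's other probe set stayed short of the limit, between -0.11 and 0.70. In all 13 the higher probe set had the lower mean level and was lowest in wounded wt. The call itself puts wounded wt below wounded opr3, which favours its lowest place, and its value also enters the mean. AT4G01290, the third highest named probe set, stood at 6.41 in wt control, 4.58 in wounded wt, 6.36 in opr3 control and 6.65 in wounded opr3, a difference of 2.07. Its other probe set stood at 8.34, 8.49, 8.32 and 8.40 in the same order, a difference of -0.09.

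AT1G01320 was at 1.86 by one probe set and -0.05 by the other, AT2G43160 at 1.69 and 0.03, AT1G10090 at 1.42 and -0.02, and AT3G50590 at 1.41 and 0.27. These 5 are among the 20 highest named probe sets, and for them no higher level of the gene can be stated. SIZ1, a SUMO ligase, was at 1.1 and 0.28 and was named after its values had been seen. The 13 genes are long, with a median of 6454 bp against 2333 bp over all measured probe sets matched to a gene. Lengths of the 85 genes from which the 13 came were not summarised, so the 13 cannot be set against those. With 1 probe set per gene, that with the highest mean, 62 of 7780 genes (0.797%) were higher and 94 (1.21%) lower. None of the lower calls was on a gene with a second measured probe set, so none could be compared in this way.

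Across 7869 probe sets the wounded difference correlated with the gene's length in the gene table at Spearman's rho of 0.12, and the control difference at -0.07. Genes of at least 6 kb held 9 higher probe sets of 309 (2.91%) and no lower one. Counted once per gene, 2 of 287 (0.697%) were higher. The 33 higher probe sets in which wounded wt stood apart on the low side had a median gene length of 4549 bp, over the 17 with a length. The 73 lower ones in which wounded wt stood apart on the high side had 2085 bp, over 34.

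The extremes of the whole comparison had no gene name. The probe set 265530_at stood at 5.97 in wt control, 9.11 in wounded wt, 3.84 in opr3 control and 3.46 in wounded opr3, the lowest difference of all at -5.65. It was at background in both opr3 arrays and above it in both wt arrays. Whether it measures OPR3, the gene mutated in this line, was not tested, so its value may be that of the lesion itself. Next came 249732_at at 6.64, 10.42, 5.03 and 5.17, a difference of -5.25. On the higher side, 265837_at was at 8.91, 7.12, 6.85 and 9.65 (2.53) and 265067_at at 7.09, 5.34, 7.30 and 7.75 (2.41). In all, 148 of the 242 lower and 94 of the 169 higher probe sets were unnamed or listed with several genes.

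At the edges of the rules, AT2G15740, with a highest value of 4.7304, was just kept by the filter, and AT5G53070, at 4.7299, was just left out. Just past the limit lay AT3G04210 at 1.0 and AT2G22880 at -1.0, and just short of it AT1G08050 and AT4G33150 at 0.99 and -0.99.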

How the data were processed

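RNA from leaves was measured on 4 Affymetrix ATH1 arrays, 1 per group. Each deposited value is the log2 expression of a probe set, for which the submitters' processing notes name RMA and Partek without versions. The sources used here do not give the authors' genome build or probe annotation. Per the labels, 10 ug of total RNA was labelled. Raw intensities were not used here, and the number of arrays limits the precision.

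Genes were named from the platform annotation, updated through the gene table of assembly TAIR10.1. It paired 13513 probe sets with 1 gene (13436 matched) and 503 with several, and 8730 plant probe sets were not listed. Gene order and length came from that table, and no coordinates are printed because the files name no build.

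Differences were taken between single arrays with pandas 2.3.3 and numpy 2.4.6 in Python 3.11.15, after a filter at 4.73 on the highest value over the 4 arrays. Without replicates there were no tests. The members, lists and families were chosen with earlier results of these data known. Named were the 20 largest differences each way, 3 plastid genes each way, list members, family members past 2-fold, genes within 50 genes of another with the same difference in both conditions, genes at the edges of the rules and genes with opposite differences. A list's median used 1 probe set per gene and needed at least 3 genes. The 19 lists held 311 genes, of which 61 were named on the array and 50 were used. Alternatives were median centring, quantile normalization and cyclic loess (limma 3.58.1 in R 4.3.3), no filter, filters at the 60th and the exact 40th percentile, low values set to 4.73, limits of 1.5-fold and 3-fold, and 1 probe set per gene. The steps were tested on simulated data. Promoter motifs were not counted, as no sequences were used here.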

Additional observations from a re-analysis of the deposited data

Results flagged for a closer look

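In 6 named genes opr3 and wt were at least 2-fold apart in opposite directions in control and in wounded plants. The difference between the conditions was not tested, since each value comes from single arrays. AT5G55450, a lipid-transfer family gene, was at -1.49 in controls and 2.07 after wounding. AT4G00700, of a C2-domain family, went from -1.22 to 1.78, and AT2G43620, of the chitinase family, from -1.41 to 1.66. AT1G13470 was at 7.12 in wt control, 6.70 in wounded wt, 5.67 in opr3 control and 7.98 in wounded opr3, a difference of 1.28 after wounding. AT5G03350, a legume lectin family gene, was at 7.38, 7.15, 5.85 and 8.38, a difference of 1.23. In these 5 genes opr3 control was the lowest array and wounded opr3 the highest. WRKY22 ran the other way, from 1.04 in controls to -1.19 after wounding. With unnamed probe sets included, 19 were lower in control and higher in wounded opr3, and 1, that of WRKY22, was the reverse.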

How the results depend on the processing

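The counts depended on the fold limit. At 1.5-fold, 681 probe sets outside the plastid genome were higher and 549 lower in wounded opr3, and at 3-fold 26 and 122. The share of lower probe sets that were also lower in controls was 24.8% at 1.5-fold and 12.3% at 3-fold. Of the MYC branch list, 1 member in place of 2 was lower with the filter at the 60th percentile (median -0.13, against -0.59 as reported) and also with low values raised to the filter level (median -0.30), since THI2.1 lies near background. The other 207 recomputed counts, shares and medians stayed within 1.5 times of the reported count, within the counting interval of the share, or on the same side of 2-fold. None of 278 alternatives over the 40 genes with the largest differences crossed the 2-fold limit or changed sign. These alternatives left out the use of 1 probe set per gene. With it, AT4G01290 (-0.09), AT1G01320 (-0.05), AT2G43160 (0.03), AT1G10090 (-0.02) and AT3G50590 (0.27) were short of the limit. The filter at the 60th percentile removed CCOAMT and AT3G50590 and gave no value for them. No paired analysis was possible because the labels carry no replicate numbers and each group has 1 array. The exact 40th percentile as filter, the counts of named probe sets and the use of 1 probe set per gene were chosen after seeing the data. Genes whose level in any array is under the filter level have folds set in part by background.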
